A study of Mus musculus with 16 samples.

Results

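The genes described here encode the nuclear-made parts of the mitochondrial oxidative phosphorylation system, complexes I to V, in mouse liver. They were taken by gene symbol, as Nduf, Sdh, Uqcr, Cox4 to Cox8 and Atp5 genes, and 85 of the 12618 genes in the deposited table met that rule. Of these, 74 encode subunits of the complexes, 9 encode assembly factors (7 Ndufaf genes, Cox7a2l and Atp5sl) and 2 are neither, Ndufa4l2 and Atp5s. By complex, 44 belonged to complex I, 4 to complex II, 8 to complex III, 13 to complex IV (with Ndufa4, now counted as a subunit of that complex, and its relative Ndufa4l2) and 16 to complex V. A pseudogene, Atp5k-ps2, was left out.

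RNA was sequenced in 16 liver libraries, 8 labelled Cyp7a1 CRISPR and 8 labelled control CRISPR, and the series' design text puts both groups of mice on a Western diet for 8 weeks. Cyp7a1 is the rate-limiting enzyme of the classical bile acid synthesis pathway. The labels give flash-frozen tissue and mRNA libraries made from total RNA, but no sex, age, strain, delivery of the guide, batch or pairing, and nothing that says each library is a separate animal, so the p-values measure the spread between these libraries. Directions below rest on the labels: the Cyp7a1 transcript averaged 4702 ± 1126 normalized counts in Cyp7a1 livers and 3587 ± 1252 in Control livers (SD, n = 8 each), a log2 fold change of 0.43 with an adjusted p of 0.227 by limma and p = 0.0716 by a two-sided exact permutation test. The targeted transcript was thus not lower in the libraries labelled Cyp7a1, and a transcript count does not check whether the protein was lost.

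Oxidative phosphorylation couples the oxidation of NADH and succinate to ATP synthesis. Complex I takes electrons from NADH and complex II takes them from succinate, ubiquinone carries them to complex III, cytochrome c carries them on to complex IV, where oxygen is reduced, and the proton gradient built by complexes I, III and IV drives the rotary ATP synthase, complex V. Hepatocytes are rich in mitochondria, and most subunits are encoded in the nucleus while a small core set is encoded in mitochondrial DNA.

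Values are normalized counts, that is, reads per gene after the submitters' scaling for library size. Back-calculated depth counts only reads of the genes in the table. It was 23.4 ± 2.41 M reads in Cyp7a1 libraries (19.6 to 27.4 M, SD, n = 8). In Control libraries it was 21.0 ± 3.48 M (13.8 to 25.4 M, SD, n = 8). A difference was tested with limma on log2(normalized count + 1), with Benjamini-Hochberg adjustment over 12617 genes, and "rose" below means an adjusted p under 0.05. All 12 hepatocyte markers on the list were present. Their summed level ran from 1744400 to 2481700 normalized counts in Cyp7a1 livers (median 2255200) and from 1688400 to 2450000 in Control livers (median 1955200). It was far above any other marker list, and the difference between the groups was not tested. None of the 9 muscle and brown fat markers, among them Cox6a2, Cox7a1 and Cox8b, was among the genes of the table.

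In the Cyp7a1 livers, transcripts of 12 of the 85 genes rose and none fell. The 12 are Ndufv2, Ndufs1 and Ndufs4 of complex I, Sdhd of complex II, Uqcrfs1 of complex III, Cox7a2 and Cox5a of complex IV, and Atp5f1, Atp5c1, Atp5b, Atp5j2 and Atp5g3 of complex V. Each increase was small, between 10.7% and 16.0%. For each of the 12 genes all 8 Cyp7a1 livers lay above the mean of the Control livers. The 12 were picked on these same values, so this is not separate evidence. It also held for members that did not pass, such as Uqcrc2 and Atp5a1, and its share over all genes was not counted. The 12 are 14.1% of these genes, and 3.07% of all genes tested rose by the same rule. Of all genes tested, 3.05% fell.

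With those 12 included, 67 of the 85 log2 fold changes were above 0 and 18 were below it, while 50.9% of all genes tested were above 0. The median log2 fold change was 0.079 for these genes and 0.0034 for all genes. At an unadjusted p under 0.05, 26 were higher in the Cyp7a1 livers, where 10.1% of all genes were, and 2 were lower, where 10.4% of all genes were. The 2 lower ones were Ndufa4l2 and Ndufaf2, and neither edgeR nor DESeq2 called any member lower. For 3 genes, Ndufv2, Atp5f1 and Atp5c1, all 8 Cyp7a1 livers lay above all 8 Control livers, a separation found in that direction for 0.507% of all genes; none was separated the other way, as 0.531% of all genes were. In bulk liver, fewer cells of a type and less RNA per cell cannot be told apart, and the same holds for more.

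**Figure D1:**
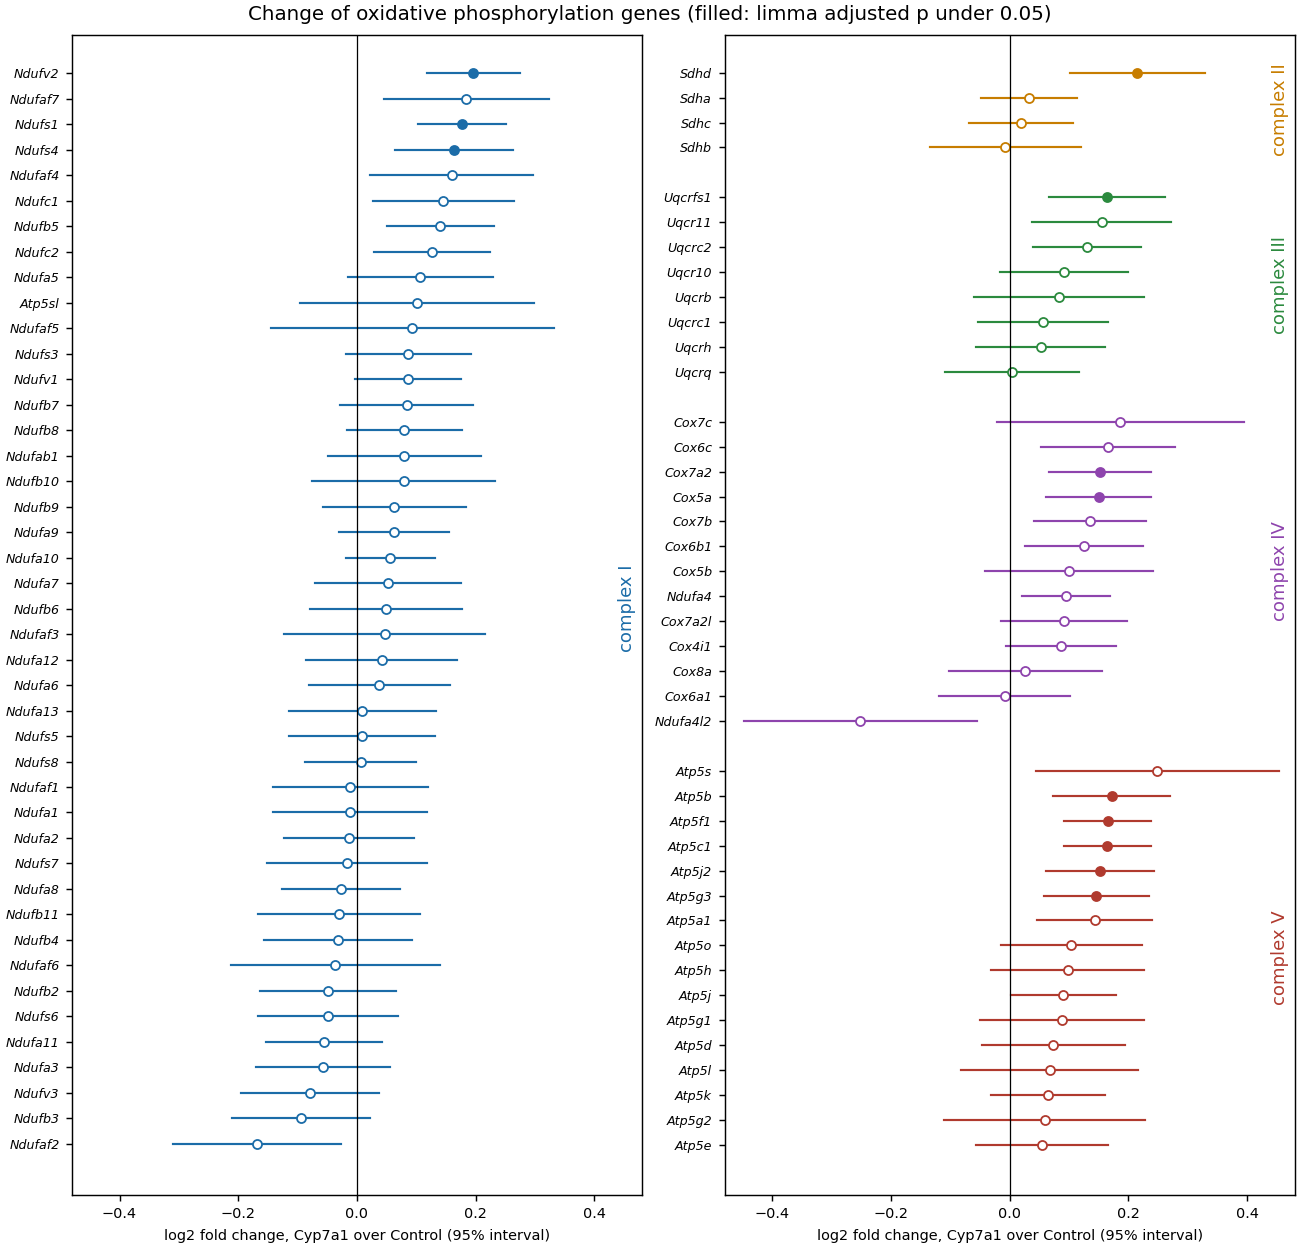
Log2 fold change of the 85 genes apart from 1 that is not shown, Cyp7a1 over Control livers (n = 8 each), with 95% intervals from limma, by complex and in order of size. Filled points are the 12 genes with an adjusted p under 0.05. All 16 complex V genes lie above 0, while the complex I genes spread from -0.17 to 0.20.

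These genes varied less between livers than most, but they were also more abundant. Their median residual SD was 0.10 on the log2 scale, against 0.17 over all genes tested. Their median level was 1370 normalized counts, against 319 over all genes tested. Neither this comparison nor the share of genes that rose was matched for level. The 12 genes that rose had mean levels with a median of 3267 normalized counts and residual SDs with a median of 0.068, against 1271 normalized counts and 0.11 for the 73 that did not pass. Single genes departed from these medians: Ndufs4 rose with a mean of 1104 normalized counts, and Sdhd with a residual SD of 0.11. Some less abundant members with a difference of the same size had a wider interval and did not pass, as with Cox7c and Ndufaf7 below. Others did not pass at a higher level. Cox6c, named after its value was seen, had a mean of 1704 normalized counts and a log2 fold change of 0.165 (adjusted p = 0.0776 by limma). Atp5a1 had a mean of 24808 and 0.14 (adjusted p = 0.0732).

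Nuclear oxidative phosphorylation genes are known to be served by a few promoter-binding factors, among them NRF1, the ETS factor GABP, YY1 and the estrogen-related receptors (ERR). RefSeq promoters of the GRCm38.p6 build ran from 250 bases before to 50 bases after the transcript start. They were matched to 69 of the 85 genes by Ensembl identifier, or by symbol where that failed. The letters CCGGAAG (ETS) stood in the promoters of 17 of the 69 (24.6%), of 19.9% of the table's genes with a promoter and in 8.86% of all promoters. GCGCATGC (NRF1) stood in 12 (17.4%, against 5.99% and 2.71%). AAGATGGC (YY1) stood in 9 (13%, against 5.32% and 2.75%), and AAGGTCA (an ERR site that other nuclear receptors share) in 8 (11.6%, against 4.25% and 4.72%). Both strands were read, none of the 4 strings contains another, and a match describes the sequence only. At least 1 of the 4 motifs was present for 36 of the 69 genes (52.2%), for 31.4% of the table's genes and in 17.6% of all promoters.

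Of the 12 genes that rose, 10 had a matched promoter, and 4 of these held a motif: YY1 in 2, ERR in 2 and ETS in 1. No NRF1 motif was present in the 10. The 4 promoters are shown, 5′ to 3′ in the direction of transcription, with capitals marking the motif on either strand. They belong to genes that rose in 3 different complexes and carry the searched letters close to the RefSeq start.

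Ndufs4 chr13:114388045-114388344, minus strand: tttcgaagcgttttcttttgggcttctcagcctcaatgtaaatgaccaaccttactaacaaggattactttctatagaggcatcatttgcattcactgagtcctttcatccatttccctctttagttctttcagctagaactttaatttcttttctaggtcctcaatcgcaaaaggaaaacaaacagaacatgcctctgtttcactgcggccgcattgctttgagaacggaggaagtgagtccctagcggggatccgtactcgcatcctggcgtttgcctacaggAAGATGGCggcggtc
Sdhd chr9:50603800-50604099, minus strand: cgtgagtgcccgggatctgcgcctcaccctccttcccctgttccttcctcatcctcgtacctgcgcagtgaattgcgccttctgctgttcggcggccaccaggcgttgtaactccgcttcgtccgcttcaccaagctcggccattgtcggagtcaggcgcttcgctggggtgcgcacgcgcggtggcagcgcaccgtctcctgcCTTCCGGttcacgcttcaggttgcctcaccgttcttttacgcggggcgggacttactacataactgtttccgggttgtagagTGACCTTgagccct
Atp5j2 chr5:145191492-145191791, minus strand: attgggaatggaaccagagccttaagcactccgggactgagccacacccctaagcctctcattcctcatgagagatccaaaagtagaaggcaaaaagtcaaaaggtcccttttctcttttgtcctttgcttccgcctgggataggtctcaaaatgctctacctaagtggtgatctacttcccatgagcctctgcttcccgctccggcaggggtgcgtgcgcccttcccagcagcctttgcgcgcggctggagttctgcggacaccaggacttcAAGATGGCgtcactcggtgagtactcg
Atp5g3 chr2:73911277-73911576, minus strand: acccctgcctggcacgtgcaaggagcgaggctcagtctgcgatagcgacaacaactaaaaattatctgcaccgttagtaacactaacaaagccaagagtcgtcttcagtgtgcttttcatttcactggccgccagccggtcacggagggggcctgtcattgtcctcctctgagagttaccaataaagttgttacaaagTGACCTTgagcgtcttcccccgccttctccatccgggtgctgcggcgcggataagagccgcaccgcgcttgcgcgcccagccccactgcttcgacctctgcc

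Positions count the first transcribed base of the RefSeq transcript as 1. This start can differ from the GENCODE gene coordinates given below. The Atp5j2 window lies wholly inside its GENCODE gene, which starts at 145192062 on the minus strand. The GENCODE start of Ndufs4, 114388258, also lies upstream of the RefSeq start used. In Ndufs4 and Atp5j2 the YY1 letters begin at positions 36 and 24 and run in the direction of transcription. In Sdhd the ETS letters are on the opposite strand from position -46, and the ERR site is on the opposite strand from position 37. In Atp5g3 the ERR site is on the opposite strand from position -52. The other 6 promoters (Ndufv2, Uqcrfs1, Cox7a2, Cox5a, Atp5c1 and Atp5b) hold none of these letters within the window.

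Complex I, the NADH dehydrogenase, had 3 of 44 genes higher and a median log2 fold change of 0.051. Ndufv2 encodes an iron-sulfur subunit of the peripheral arm where NADH is oxidized (chromosome 17, 66078638 to 66101559, minus strand, GRCm38). Its normalized counts were 1935 at the lowest, 2084 at the median and 2155 at the highest of the Cyp7a1 livers, and 1704, 1815 and 1923 in the Control livers. The groups did not overlap, and the log2 fold change was 0.20 ± 0.04 (SE, adjusted p = 0.00534). Ndufs1 encodes the large iron-sulfur subunit of the same arm (chromosome 1, 63143596 to 63176833, minus strand). It had 3246, 3416 and 3567 normalized counts at the lowest, median and highest of the Cyp7a1 livers, against 2883, 3001 and 3266 in Control livers. Control 20 was the highest Control liver for Ndufs1 and the only one above the lowest Cyp7a1 liver, and the log2 fold change was 0.18 ± 0.04 (adjusted p = 0.00729). Ndufs1 shares exon sequence with Eef1b2 on the opposite strand, whose start lies 8 bases away. Whether the counting used strand is not given in the sources used here, so reads from the overlap cannot be told apart. Eef1b2, a translation elongation factor named here after its value was seen, had a log2 fold change of 0.16 and an adjusted p of 0.0551.

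Ndufs4 encodes an accessory subunit near the NADH-oxidizing module (chromosome 13, 114287795 to 114388258, minus strand), and its loss in mice is a model of Leigh syndrome. It had 1084, 1177 and 1237 normalized counts in Cyp7a1 livers, against 930, 1029 and 1156 in Control livers. These groups overlapped, with 5 of 8 Cyp7a1 livers above every Control liver, and the log2 fold change was 0.16 ± 0.05 (adjusted p = 0.0488; not called by edgeR). Among the 3 core subunits of the NADH-oxidizing module, Ndufv2 and Ndufs1 rose and Ndufv1, which carries the flavin, had a log2 fold change of 0.09 (adjusted p = 0.258). Of the 29 accessory subunits of complex I, 1 rose, Ndufs4, and their median was 0.041.

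The members with the lowest fold changes were complex I genes, apart from Ndufa4l2. Ndufaf2, an assembly factor, had 148, 162 and 189 normalized counts in Cyp7a1 livers and 171, 188 and 218 in Control livers. Its log2 fold change was -0.17 (adjusted p = 0.155), and 7 of 8 Cyp7a1 livers lay below the Control mean. Ndufb3 and Ndufv3, both accessory subunits, had log2 fold changes of -0.09 (adjusted p = 0.366) and -0.08 (adjusted p = 0.459), and Ndufa3, another, had -0.06 (adjusted p = 0.611). None of these passed. Ndufaf7, an assembly factor, had a log2 fold change of 0.18 and all 8 Cyp7a1 livers above the Control mean, but an adjusted p of 0.109. The 9 assembly factors among the 85 genes had none called by limma, edgeR or DESeq2, 2 higher and 1 lower at an unadjusted p under 0.05, and a median of 0.092.

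Complex II, succinate dehydrogenase, is also an enzyme of the tricarboxylic acid cycle and holds no mitochondrially encoded subunit. Only 1 of its 4 genes passed. Sdhd encodes the small membrane anchor that helps bind ubiquinone and heme (chromosome 9, 50596357 to 50603812, minus strand). It had 3193, 3627 and 3984 normalized counts at the lowest, median and highest of the Cyp7a1 livers, against 2787, 2984 and 3441 in Control livers. The groups overlapped, with 5 of 8 Cyp7a1 livers above every Control liver, and its log2 fold change of 0.21 ± 0.05 (adjusted p = 0.0258) was the largest among the 12 genes that rose. Its other three partners, the flavoprotein Sdha, the iron-sulfur protein Sdhb and the second anchor Sdhc, lay near 0: Sdha averaged 13178 ± 393 normalized counts in Cyp7a1 livers and 12881 ± 380 in Control livers, with a log2 fold change of 0.03 and a 95% interval of -0.05 to 0.11. Sdhc had a log2 fold change of 0.02 (-0.07 to 0.11) and Sdhb of -0.0074. The intervals of Sdha and Sdhd overlapped slightly, and the difference between them was not tested.

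Complex III, the cytochrome bc1 complex, had 1 of 8 genes higher, all 8 fold changes above 0 and a median log2 fold change of 0.088. Uqcrfs1 encodes the Rieske iron-sulfur protein, which passes electrons toward cytochrome c (chromosome 13, 30540308 to 30545362, minus strand). It had 3788, 4165 and 4529 normalized counts in Cyp7a1 livers, against 3225, 3798 and 3938 in Control livers. All but 1 of the Cyp7a1 livers lay above every Control liver, Control 38 was far below the rest of its group, and the log2 fold change was 0.16 ± 0.05 (adjusted p = 0.0458; not called by edgeR). Uqcrc2, a core protein of the matrix side, had 5127, 5229 and 5485 normalized counts in Cyp7a1 livers and 4190, 4914 and 5169 in Control livers. Its log2 fold change was 0.13 ± 0.04 with an adjusted p of 0.0824, so it did not pass by limma, although 6 of 8 Cyp7a1 livers exceeded every Control liver and DESeq2 called it. Uqcrb, which helps form the ubiquinone site, had 0.08 (adjusted p = 0.54), and Uqcrq, a small subunit next to cytochrome b, had 0.0039 (95% interval -0.11 to 0.12).

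Complex IV, cytochrome c oxidase, had 2 of 13 genes higher and a median log2 fold change of 0.0996, or 0.13 over its 11 subunits. Cox7a2 encodes the isoform of subunit VIIa made in liver (chromosome 9, 79755361 to 79759878, minus strand). It had 1909, 2061 and 2178 normalized counts in Cyp7a1 livers, against 1722, 1866 and 1917 in Control livers. The groups overlapped at their edges, with 6 of 8 Cyp7a1 livers above every Control liver, and the log2 fold change was 0.15 ± 0.04 (adjusted p = 0.0354). Cox5a encodes a subunit on the matrix side (chromosome 9, 57521274 to 57532426, plus strand). It had 2152, 2295 and 2317 normalized counts in Cyp7a1 livers, against 1828, 2044 and 2220 in Control livers. Again 6 of 8 Cyp7a1 livers lay above every Control liver, and the log2 fold change was 0.15 ± 0.04 (adjusted p = 0.0442; not called by edgeR).

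Several complex IV subunits have tissue isoforms, and the table held only the widely expressed or liver forms. Cox4i1, the largest nuclear subunit, averaged 6609 ± 340 normalized counts in Cyp7a1 livers and 6224 ± 320 in Control livers, a log2 fold change of 0.09 (adjusted p = 0.285). Cox6a1 and Cox8a lay near 0, at -0.0087 (95% interval -0.12 to 0.10) and 0.03 (-0.10 to 0.16). Cox6b1, a subunit on the intermembrane side, had 0.13 and an unadjusted p of 0.0163, but an adjusted p of 0.131. Cox7c, a small membrane subunit, had 369, 453 and 577 normalized counts in Cyp7a1 livers and 312, 397 and 498 in Control livers. Its log2 fold change of 0.19 was larger than that of Cox7a2, but its interval ran from -0.02 to 0.39 (adjusted p = 0.306). Cox7a2l, which links complexes III and IV into supercomplexes, had 0.09 (adjusted p = 0.325).

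Ndufa4 and Ndufa4l2 are close relatives, and the second is known to be induced by hypoxia. Ndufa4 had 3679, 3746 and 3975 normalized counts in Cyp7a1 livers and 3342, 3481 and 3758 in Control livers. Ndufa4l2 was far less abundant, at 39.6, 45.2 and 55.8 normalized counts in Cyp7a1 livers and 44.5, 55.8 and 60.0 in Control livers. The log2 fold change was 0.09 for Ndufa4 (adjusted p = 0.126) and -0.25 for Ndufa4l2 (adjusted p = 0.123), so neither passed by limma; DESeq2 called Ndufa4 higher. Ndufa4l2 shares exon sequence with Shmt2 on the opposite strand.

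Complex V, the ATP synthase, held 5 of the 12 genes that rose, all 16 of its fold changes were above 0, and its median log2 fold change was 0.10 (0.16 without Control 20 and Cyp7a1 24). Atp5f1, now Atp5pb, encodes subunit b of the peripheral stalk, which holds the catalytic head still (chromosome 3, 105942698 to 105960099, minus strand). It had 3545, 3674 and 3778 normalized counts in Cyp7a1 livers, against 2999, 3304 and 3422 in Control livers. The groups did not overlap, and the log2 fold change was 0.17 ± 0.03 (adjusted p = 0.01). Its exons overlap those of Wdr77 on the opposite strand, a gene with a mean of 220 normalized counts. Atp5c1, now Atp5f1c, encodes the central rotor subunit gamma (chromosome 2, 10056016 to 10080510, minus strand). It had 4815, 5086 and 5413 normalized counts in Cyp7a1 livers, against 4353, 4571 and 4758 in Control livers. Here too the groups did not overlap, and the log2 fold change was 0.16 ± 0.04 (adjusted p = 0.0107).

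Atp5b, now Atp5f1b, encodes the catalytic subunit beta (chromosome 10, 128083273 to 128090391, plus strand) and was the most abundant of the 85 transcripts. It had 26239, 28953 and 30928 normalized counts in Cyp7a1 livers, against 24453, 25495 and 26729 in Control livers. All but 1 of the Cyp7a1 livers lay above every Control liver, and the log2 fold change was 0.17 ± 0.05 (adjusted p = 0.039). Under quantile normalization the value was 0.09 with an adjusted p of 0.474, the highest of its 25 settings. Its partner in the catalytic head, Atp5a1, did not pass by limma, with a log2 fold change of 0.14 and an adjusted p of 0.0732, but was called by DESeq2. Over the 5 subunits of the F1 part, which counts the central rotor subunit gamma with the head, 2 rose and the median was 0.14.

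Atp5j2, now Atp5mf, encodes a small membrane subunit (chromosome 5, 145183698 to 145192062, minus strand). It had 1809, 1962 and 2113 normalized counts in Cyp7a1 livers, against 1656, 1750 and 1948 in Control livers. The groups overlapped, with 4 of 8 Cyp7a1 livers above every Control liver, and the log2 fold change was 0.15 ± 0.04 (adjusted p = 0.0465). Atp5g1, Atp5g2 and Atp5g3 encode the same mature subunit c of the proton-driven ring with different import sequences, so reads from their shared coding part may be split between them. Atp5g3 (chromosome 2, 73908447 to 73911326, minus strand) had 6463, 6839 and 7155 normalized counts in Cyp7a1 livers, against 5598, 6132 and 6682 in Control livers. It was the dominant form, since Atp5g1 had 451, 499 and 598 normalized counts in Cyp7a1 livers and 406, 477 and 531 in Control livers, and Atp5g2 was lower still. Only Atp5g3 rose, with a log2 fold change of 0.15 ± 0.04 (adjusted p = 0.0469; not called by edgeR); Atp5g1 had 0.09 (95% interval -0.05 to 0.23) and Atp5g2 had 0.06 (-0.11 to 0.23), and differences among the 3 were not tested. Atp5s, a regulator also called factor B, had the largest value of all 85, 0.25, but with a mean of 97 normalized counts over all livers, an interval of 0.04 to 0.45 and an adjusted p of 0.146.

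**Figure D2:**
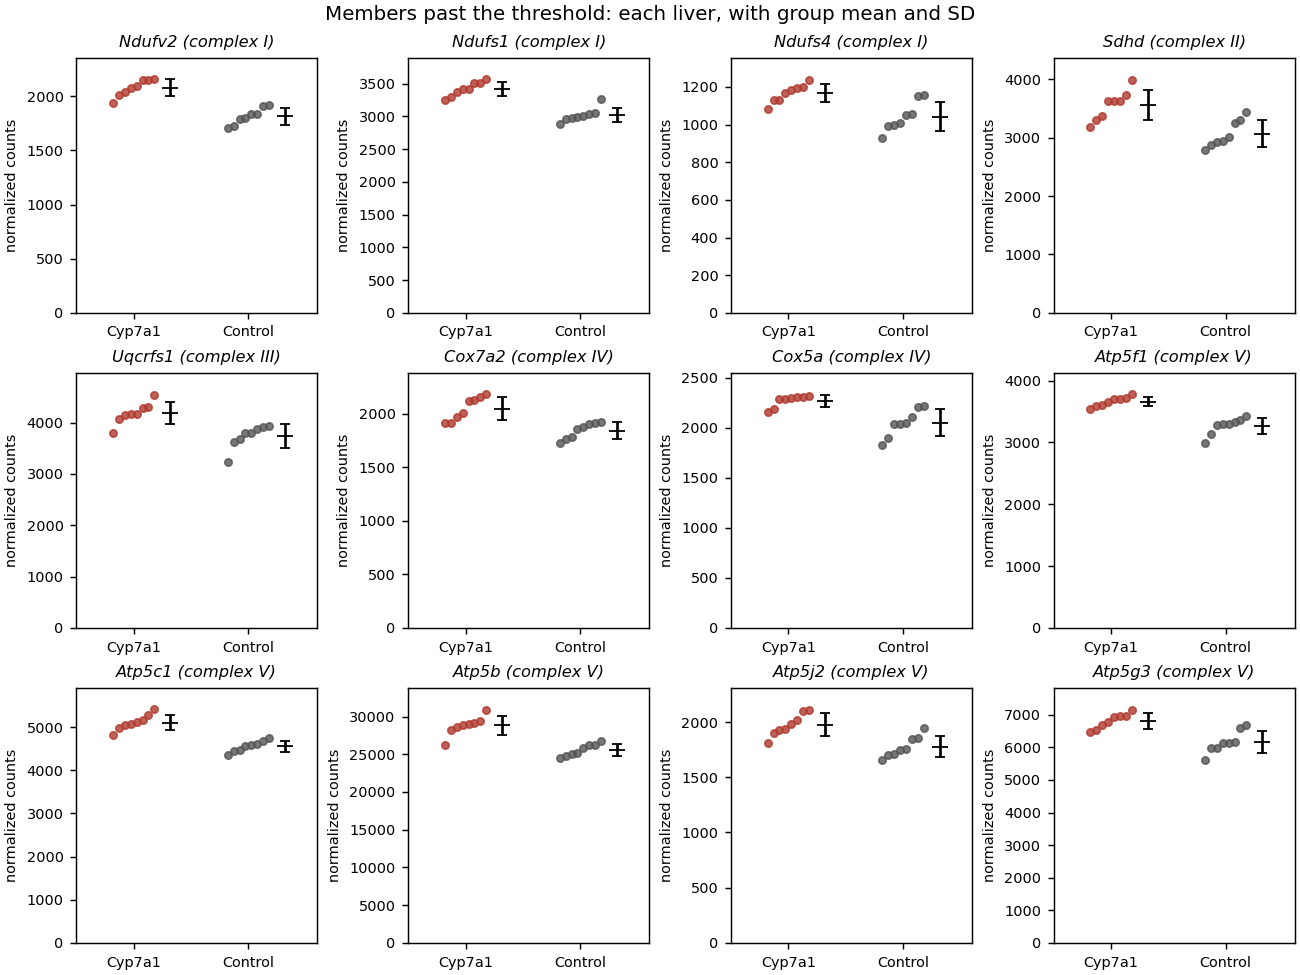
Normalized counts of the 12 genes that rose, 1 panel a gene and 1 point a liver in order of value, for Cyp7a1 (left) and Control (right) livers, with the group mean and SD beside them (n = 8 each). Axes start at 0. The groups are apart in Ndufv2, Atp5f1 and Atp5c1 and overlap in the other 9.

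The calls differ in how far they depend on single libraries and on scaling. Ndufv2, Ndufs1 and Atp5c1 kept an adjusted p under 0.05 in all 25 alternative settings that were run, Atp5f1 in 24 and Sdhd in 23. Cox7a2 kept it in 15, and the other 6 (Ndufs4, Uqcrfs1, Cox5a, Atp5b, Atp5j2 and Atp5g3) in 9 to 11. Only 4 of the 12 calls remained without Cyp7a1 28 and 4 without Control 16, the libraries whose removal had the greatest effect, and Sdhd was among those lost each time (highest adjusted p = 0.0532). The count came to 5 without each of Cyp7a1 17, Cyp7a1 26, Cyp7a1 36 and Control 38, to 6 without each of Cyp7a1 2, Cyp7a1 19 and Control 35, to 7 without each of Control 12 and Control 13, to 7 without Control 25 (6 of the 12, with Ndufb5 added), and to 4 when every library was scaled to the same total. Over all genes, 230 were called higher without Cyp7a1 28 and 261 without Control 16, against 387 with all 16 libraries. The direction of the 12 did not change in any setting.

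Levels within a complex differed far more than the groups did. On a per-length scale, the mean normalized count over the 16 livers divided by transcript length in kb, complex I ran from 59.9 for Ndufaf5, an assembly factor, to 3953 for Ndufb9, an accessory subunit, with a median of 1182. Complex II had a median of 3194, between 1240 for Sdhc and 4493 for Sdha. Complex III had a median of 3201, from 1811 for Uqcrb to 9549 for Uqcrq. Complex IV had a median of 3345, with Cox4i1 at 8613 and Ndufa4l2 at 53.6. Complex V had a median of 2567, from 65.0 for Atp5s to 14193 for Atp5b. Over the subunits alone, the lowest were Ndufab1 in complex I at 285, Cox7c in complex IV at 793 and Atp5l in complex V at 295.

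These levels depend on the transcript taken. Length was that of the shortest principal coding transcript of each gene, chosen over the longest after values were seen; 9 genes have principal transcripts of several lengths, and for 5 of them the lengths differ by more than 1.5 times. Uqcrq would be 2543 per kb and Atp5g1 104 per kb, in place of 821, with the longest. Many of these genes also have processed pseudogenes, and how reads that match several places were counted is not given in the sources used here, so low values for short subunits such as Cox7c and Atp5l, at 793 and 295 per kb, may be undercounts.

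**Figure D3:**
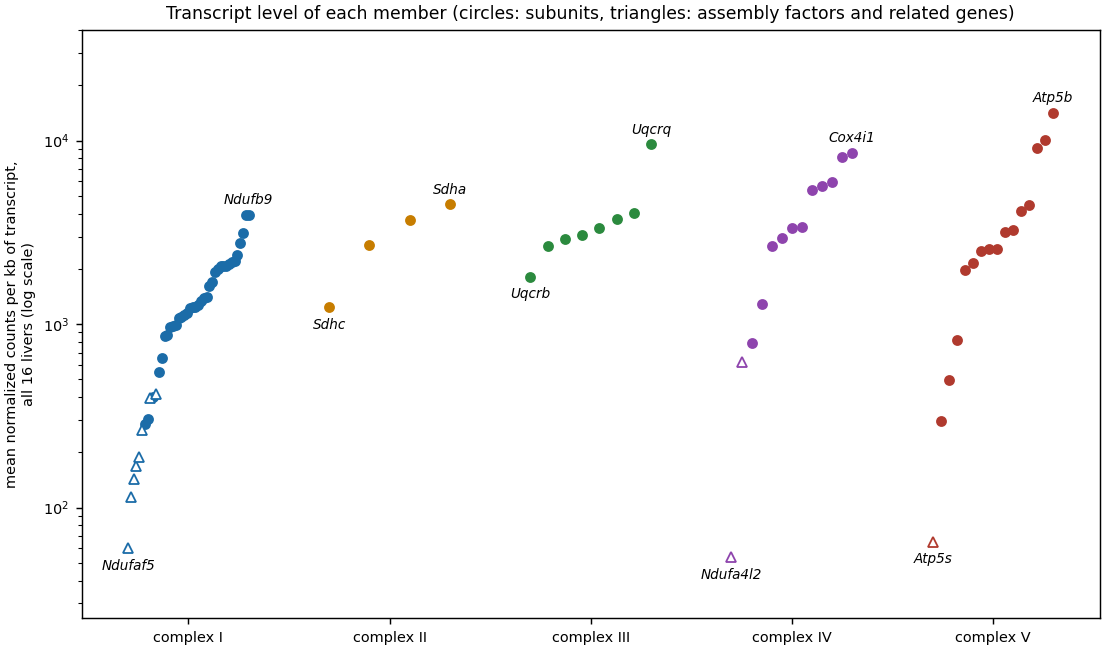
Mean level of each of the 85 genes over all 16 livers, in normalized counts per kb of transcript on a log scale, by complex and in rising order. Circles are subunits and triangles are assembly factors and related genes. Atp5b stands highest, at 14193, and Ndufa4l2 lowest, at 53.6.

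The livers were compared by the mean deviation of the 85 transcripts from their 16-liver means, on the log2 scale. In Cyp7a1 livers this ran from -0.09 to 0.12 with a median of 0.033, and in Control livers from -0.10 to 0.03 with a median of -0.011. Cyp7a1 17 (0.12) and Cyp7a1 28 (0.10) were the highest of all 16. Control 13 (-0.09), Control 16 (-0.10) and Control 35 (-0.10) were the lowest of their group, and Cyp7a1 24 was level with them at -0.09. The groups therefore overlapped, and the other 7 Cyp7a1 livers were all above 0. In Cyp7a1 28, 79 of the 85 transcripts were above their median over the livers, in Cyp7a1 24 only 15 were, and in Control 35 only 10 were.

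In the livers at either end, all 5 complexes lay on the same side. Cyp7a1 17 was above 0 for each complex, from 0.11 for complex I to 0.15 for complex II, and Control 35 was below 0 for each, from -0.08 for complex III to -0.12 for complex V. The difference between group means, Cyp7a1 minus Control, was 0.12 for complex V, 0.092 for complex III, 0.081 for complex IV, 0.065 for complex II and 0.043 for complex I. For complex V every Control liver was below 0, the highest being Control 20 at -0.00030, and 7 of 8 Cyp7a1 livers were above it. Differences between complexes were not tested. As a share of all counts in the table, the 85 genes took 1.05% to 1.16% in Cyp7a1 livers and 0.963% to 1.10% in Control livers.

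**Figure D4:**
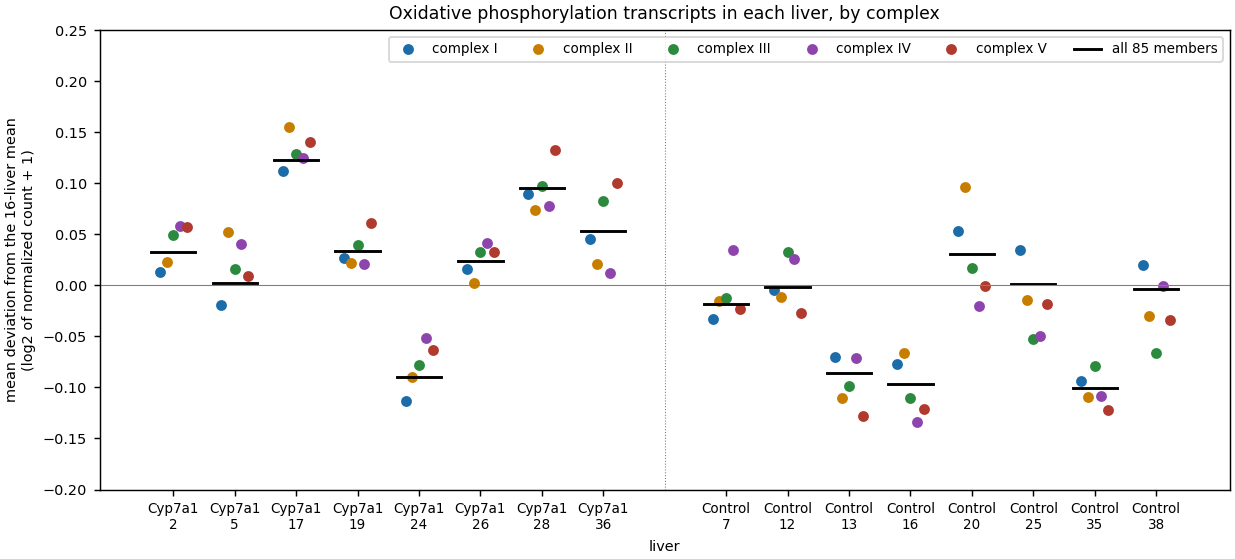
Mean deviation of each complex's transcripts (coloured points) and of all 85 (black bar) from the mean over the 16 livers, in log2 units, for each Cyp7a1 liver (left) and Control liver (right). Cyp7a1 17 and 28 are highest, and Cyp7a1 24 lies as low as Control 13, 16 and 35.

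Transcripts of other parts of the same system were read from further lists. Of the 13 protein genes of mitochondrial DNA, 10 were in the table. None was called by limma, edgeR or DESeq2, and 1 had an unadjusted p under 0.05. Their median log2 fold change was 0.20, with 9 of 10 above 0. The smallest p was that of mt-Nd5, a core membrane subunit of complex I, which averaged 122920 ± 16531 normalized counts in Cyp7a1 livers and 101715 ± 16490 in Control livers (log2 fold change 0.28, adjusted p = 0.158). These transcripts took 3.85% to 6.12% of the table's counts in Cyp7a1 livers and 3.61% to 5.23% in Control livers, and the highest, Cyp7a1 24, was the Cyp7a1 liver with the lowest nuclear-encoded transcripts. Values of mt-Co2, mt-Atp6 and mt-Co3 were at most 120 normalized counts in any liver, against at least 165309 for mt-Co1, so the 10 cannot be compared with one another by level. These low genes, with log2 fold changes of 0.20, 0.21 and 0.21, enter the list's median of 0.20.

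Of 5 further genes that the symbol rule did not reach, 2 rose, both small membrane proteins of the ATP synthase. The 5 include cytochrome c and the ATP synthase inhibitor Atpif1. 2010107E04Rik averaged 1257 ± 85.1 normalized counts in Cyp7a1 livers and 1098 ± 67.6 in Control livers (log2 fold change 0.19, adjusted p = 0.029), and Usmg5 averaged 598 ± 46.1 in Cyp7a1 livers and 525.9 ± 30.9 in Control livers (0.18, adjusted p = 0.0493). The median of the 5 was 0.066. Of 46 further assembly factors 1 rose, Foxred1 of complex I (0.20, adjusted p = 0.0393), and their median was 0.011. The mitochondrial ribosome, which makes the mitochondrially encoded subunits, had 1 of 76 genes higher, Mrpl15 (0.27, adjusted p = 0.0259), and a median of 0.0043. The share that rose was 2.17% of these assembly factors and 1.32% of the ribosomal genes, against 3.07% of all genes tested. Of 12 coenzyme Q genes none was called by limma, edgeR or DESeq2 and 1, Coq10b, had an unadjusted p under 0.05 (log2 fold change 0.22, adjusted p = 0.22); their median was 0.066.

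Carriers that feed the ATP synthase and enzymes of the tricarboxylic acid cycle included several genes that rose, where 3.07% of all genes tested rose. Of 7 carriers and pores, 2 rose and the median was 0.15. Slc25a3, which imports phosphate, averaged 5960 ± 163 normalized counts in Cyp7a1 livers and 5231 ± 300 in Control livers (log2 fold change 0.19, adjusted p = 0.0114), and all 8 Cyp7a1 livers lay above all 8 Control livers. Slc25a5, which exchanges ADP for ATP, averaged 4662 ± 372 in Cyp7a1 livers and 3925 ± 358 in Control livers (0.25, adjusted p = 0.0239). Of 13 tricarboxylic acid cycle genes, complex II left aside, 3 rose, Fh1 (fumarase, 0.36, adjusted p = 0.00991), Mdh2 (malate dehydrogenase, 0.20, adjusted p = 0.027) and Idh3a (isocitrate dehydrogenase, 0.33, adjusted p = 0.0477), and the median was 0.090. None of these lists had a member called lower by limma or edgeR, while DESeq2 called 1 assembly factor and 1 ribosomal gene lower.

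Among 12 regulators of mitochondrial gene expression, 1 rose, Ppargc1a, the coactivator PGC-1alpha that is induced in liver by fasting. It averaged 167 ± 25.3 normalized counts in Cyp7a1 livers and 103 ± 17.5 in Control livers, a log2 fold change of 0.69 ± 0.11 (adjusted p = 0.00175). The ranges, 125 to 200 in Cyp7a1 livers and 78.6 to 132 in Control livers, overlapped slightly. Of the 12, 8 were above 0 and 4 below it, and the median was 0.038. The 1 that rose is 8.33% of the list, against 3.07% of all genes tested.

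**Figure D5:**
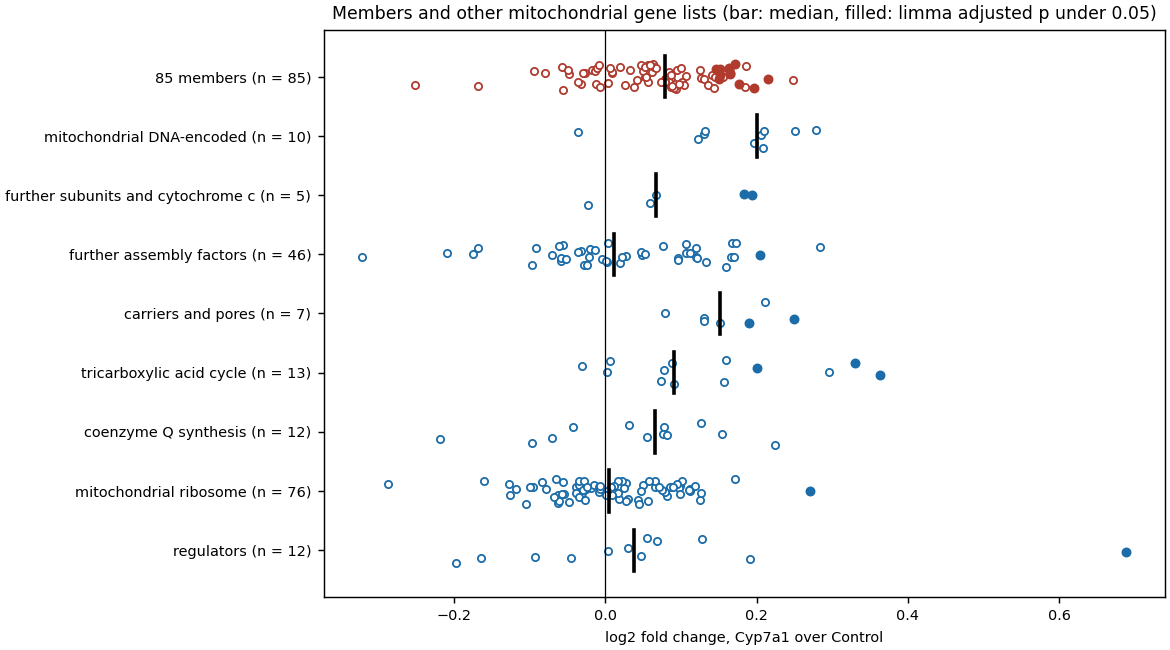
Log2 fold change, Cyp7a1 over Control livers, of the 85 genes (top) and of 8 related lists, 1 point a gene, with the median of each list as a bar and genes with a limma adjusted p under 0.05 filled. The median is 0.079 for the 85 genes, 0.20 for the mitochondrially encoded genes and 0.0043 for the mitochondrial ribosome. Ppargc1a stands apart at 0.69.

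Other cell types were read beside these results. Over all genes tested, 3.07% were called higher and 3.05% lower by limma. The hepatocyte list had 1 of 12 genes higher, Tat (log2 fold change 0.84, adjusted p = 0.0466), and a median of 0.11. No gene of the Kupffer cell (11), stellate cell (9), endothelial (8), blood (5) or lymphocyte and neutrophil (3) lists was called by limma, edgeR or DESeq2, and only the endothelial list had genes with an unadjusted p under 0.05, 1 higher and 1 lower. The biliary list (7) had 1 lower, Krt23 (-2.15, adjusted p = 0.000655). Summed Kupffer cell markers ran from 7593 to 27556 normalized counts in Cyp7a1 livers and from 8844 to 15397 in Control livers. Summed stellate cell markers ran from 7018 to 14138 in Cyp7a1 livers and from 5291 to 15809 in Control livers. Endothelial markers summed to between 9089 and 12897 in Cyp7a1 livers and between 10499 and 13244 in Control livers, and biliary markers to between 2559 and 5711 in Cyp7a1 livers and between 2198 and 5687 in Control livers. Lymphocyte and neutrophil markers summed to between 189 and 1259 in Cyp7a1 livers and between 216 and 766 in Control livers, and blood markers to between 2266 and 5602 in Cyp7a1 livers and between 2481 and 6199 in Control livers. Cyp7a1 24, the Cyp7a1 liver with the lowest levels of the 85 genes, had the highest Kupffer cell (27556), stellate cell (14138), endothelial (12897), biliary (5711) and lymphocyte and neutrophil (1259) sums of its group and the lowest hepatocyte sum (1744383). Control 20 was the Control liver with the highest levels of the 85 genes. Without Control 20 and Cyp7a1 24, 11 of the 12 calls remained, but leaving out livers at these ends favours such calls. The part of cell composition in the 12 calls was not tested.

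By position, the 85 genes lie on 19 chromosomes, 3 of them on the X. A protein-coding gene of the table starts on the opposite strand within 1000 bases of the start of 27 of the 85 (31.8%), against 13.8% of all protein-coding genes of the table. Of the 27 neighbours, 1 passed the limma threshold: Vmac, beside Ndufa11, was lower (log2 fold change -0.26, adjusted p = 0.0289). By the same rule 3.05% of all genes tested were lower. Of the 12 genes that rose, 4 have such a neighbour: Sdhd has Timm8b (0.03, adjusted p = 0.844), Atp5f1 has Wdr77 (0.08, adjusted p = 0.676), Atp5c1 has Kin (-0.13, adjusted p = 0.293) and Ndufs1 has Eef1b2. These neighbours were named after their values were seen. Exons of 18 of the 85 genes overlap an exon of another gene of the table, all on the opposite strand.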

How the data were processed

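The deposited table holds normalized counts for 16 libraries, a signal per gene that the authors made by dividing counts by one factor per library, as the values show. The submitters' processing notes name the mm10 build, STAR (2.7.11a), Trim Galore (0.6.10), featureCounts, DESeq2 and R (3.6.3), without saying what each did. No source used here gives the settings for strand or for reads that match several places. All sample columns were used. One gene with a text cell was dropped, which left 12617, and 19 symbols that a spreadsheet had turned into dates were restored from gene identifiers.

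The values were tested with limma 3.58.1 (trend, log2(value + 1), genes with a mean of at least 10, two-sided, adjusted p under 0.05; R 4.3.3), Cyp7a1 against Control, with no covariates. The filter removed no gene. In every library nearly all values were whole multiples of one step (99.945% to 99.992% within 0.05 of a whole read), and edgeR 4.0.16 and DESeq2 1.42.0 were run on the reads recovered with that step, with 381 genes higher and 379 lower by edgeR, and 548 and 573 by DESeq2. For 11 libraries the step came from this fit alone, since an independent check of the smallest value could settle it for only 5. Depth in the text comes from these reads. Exons, coordinates and transcript lengths are from GENCODE M21, and 12594 gene identifiers matched it.

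The members and lists were chosen with earlier results of these data known. Genes named were every member past the threshold, the pair with the smallest p in each complex, the 5 largest rises and falls, the most and least abundant per kb in each complex, the isoform families, up to 3 genes of each related list and Cyp7a1. One member enters the counts and medians but is not reported singly here. Other genes were named as partners in a complex or as neighbours after their values were seen. The mitochondrial ribosome list was set by symbol once the table was in hand. Groups share no numbers, so no pairing was used. Alternatives changed the pseudocount, filter, scaling, weights, tool and libraries, and the steps were tested on simulated data.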

Additional observations from a re-analysis of the deposited data

Results flagged for a closer look

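Each member, the scores per liver, depth and Cyp7a1 were looked at within each group of 8 livers (genes on the log2 scale), 190 groups of values in all. In 14 of them 1 liver lay far from the others by Dixon's criterion of 0.526; about 1 in 20, here 9.5, would be marked by chance. Cyp7a1 24 was low for 5 members, with 2912 normalized counts of Ndufv1 (others 3275 to 3507), 757 of Atp5sl (979 to 1164), 453 of Ndufb4 (511 to 568.4), 1883 of Atp5j (2081 to 2236) and 1230 of Atp5e (1366 to 1457). Cyp7a1 2 was high for Ndufa4, at 3975 against 3679 to 3781. Control 38, the library with the fewest reads, was low for Ndufab1 (312 against 386 to 436) and Uqcrfs1 (3225 against 3629 to 3938) and high for Ndufb4 (648 against 492 to 557). Control 20 was high for Ndufs1 (3266 against 2883 to 3056) and Ndufb2 (471 against 377 to 411). Control 35 was low for Ndufv1, at 2820 against 3071 to 3263. Control 7 was high for Ndufaf5 (91.5 against 58.4 to 70.9), and Control 12 was high for Ndufaf3 (214 against 143 to 169). Of the 12 genes that rose, Ndufs1 and Uqcrfs1 are concerned.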

How the results depend on the processing

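The median log2 fold change of the 85 genes lay between 0.060 and 0.11 in every setting, no member was called lower in any, and the 12 genes that rose kept their direction. Their number did not hold: it was 4 with libraries scaled to equal totals and 4 to 12 with 1 library left out, where the genes called higher over the whole table numbered 230 to 399 and those called lower 245 to 414. It was 17 with array weights, 18 with DESeq2, 8 with edgeR, 10 with quantile normalization and 12 without Control 20 and Cyp7a1 24, 11 of them the same genes. That pair is the highest Control and the lowest Cyp7a1 liver for the 85 genes, so leaving it out favours such calls. Members near 0 changed sign: Uqcrq was -0.0112 with quantile normalization, -0.0033 with equal totals, and -0.0186 to 0.0302 with 1 library left out, below 0 without Cyp7a1 2, Cyp7a1 17, Control 13, Control 16 or Control 35. Cox6a1 was 0.0052 with array weights, 0.0080 without Control 20 and Cyp7a1 24, and -0.0327 to 0.0232 with 1 library left out, above 0 without Cyp7a1 24, Control 12 or Control 38. The causes were not tested. The Cyp7a1 transcript did not pass in any setting (0.33 to 0.53). No paired analysis was possible because the groups share no replicate numbers. Among related lists, the call of Usmg5 was lost in 16 settings, that of Idh3a in 14 and that of Foxred1 in 11.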
